A study of Rattus norvegicus with 48 samples.

Results

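Ccl7, also known as MCP-3, is a secreted chemokine of the CC family, named for a pair of neighbouring cysteines near the start of the protein. It was studied here as 1 gene (ENSRNOG00000000239) of the 31998 in the deposited count matrix. It was chosen by its counts, which were higher under immobilization in both muscles and in both lines, so the difference between immobilized and control muscle is given below as a description, with no test. Tests were kept for the differences between lines and between muscles.

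Plantaris and soleus muscle was taken from female rats aged 14 months, which belonged to generation 19 of lines bred for a low (LRT) or a high (HRT) response to endurance training. Per the methods of the study, all rats had trained on a treadmill early in adult life and rested until the experiment. The rats of the HI groups had 1 hindlimb cast in plantar-flexion for 3 d, and the muscles were taken from the cast limb. The rats of the CTRL groups were separate animals with no cast, anaesthetized and dissected by the same procedure, and puromycin was injected shortly before collection to label new protein. The 8 groups were plantaris LRT HI, plantaris LRT CTRL, plantaris HRT HI, plantaris HRT CTRL, soleus LRT HI, soleus LRT CTRL, soleus HRT HI and soleus HRT CTRL, with 6 libraries in each and 48 in all.

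Chemokines are small proteins that draw leukocytes along a gradient by binding receptors on the cell surface. Ccl7 binds Ccr2, as does its close relative Ccl2 (MCP-1), and also Ccr1 and Ccr3, and through Ccr2 both ligands bring monocytes out of the bone marrow and into tissue. In muscle, monocytes and macrophages clear debris and aid regeneration after injury, and Ccl7 can be made by macrophages, fibroblasts, endothelium and muscle cells. The transcription of both ligands is known to be driven by inflammatory signals that act through NF-kB and AP-1.

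The promoter of Ccl7 is shown because the genes whose levels most resembled it, described below, include members of these pathways. Over all 48 libraries that likeness includes the difference by which Ccl7 was chosen, and a part of these pathways in the level of Ccl7 was not tested. RefSeq places Ccl7 on chromosome 10 of GRCr8, with Ccl2 as the nearest gene on one side and Ccl11, Ccl12 and Ccl1 on the other. The 250 bases before the start of the gene, chr10:67513845-67514094 on the plus strand, are given 5′ to 3′ with the matches to 3 motifs in capitals. The deposited counts were made on an earlier build (Rnor_6.0), and no position of that build was used.

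Ccl7: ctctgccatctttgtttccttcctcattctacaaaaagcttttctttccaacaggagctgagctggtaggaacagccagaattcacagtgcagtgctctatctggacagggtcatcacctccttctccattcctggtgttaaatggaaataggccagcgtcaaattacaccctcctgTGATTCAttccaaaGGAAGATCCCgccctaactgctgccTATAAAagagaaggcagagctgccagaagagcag

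The first run of capitals matches the AP-1 motif TGANTCA and spans bases 73 to 67 before the start. The second matches the kappa-B consensus of NF-kB on the minus strand and spans bases 59 to 50. The third, bases 34 to 29, is the TATA motif TATAAA, which was searched on the plus strand only, whereas all other motifs were searched on both. No match overlapped another. Among the 33469 promoter windows of this length in RefSeq, 6.34% held the AP-1 motif, 6.33% the kappa-B consensus and 8.06% the TATA motif. The C/EBP motif TTNNGNAA, held by 37.2% of the windows, and the GAS motif TTCNNNGAA, held by 7.67%, had no match in this window. A match is a run of letters and was not tested for binding.

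The libraries held 26.8 to 36.4 M estimated counts (median 30.4 M), with RNA integrity numbers (RIN) of 7.8 to 8.6, and no library was left out. The muscle labels were checked on markers. Pvalb, the calcium buffer of fast fibres, was at 530.5 CPM (counts per M counts of the library) or more in each plantaris library and at 43.1 CPM or less in each soleus library. Casq2, a calcium store protein of slow and cardiac muscle, was at 71.6 CPM or less in plantaris and 103.6 CPM or more in soleus. Pln, a further slow muscle marker, did not separate the muscles (12.3 to 54.0 CPM against 11.3 to 51.1 CPM), and neither did the fast marker Casq1 (287 to 2412 CPM against 305 to 694 CPM).

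Ccl7 was detected in all 48 libraries, but at low counts. A library held between 3 and 80 counts (median 20), and all libraries together held 1271. The estimates lay within 0.18 of a whole number in each library. CPM values below are scaled by TMM (trimmed mean of M values). Since a muscle sample is a mixture of fibres and other cells, a change in the number of cells that make Ccl7 and a change in its RNA per cell cannot be told apart.

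In control muscle Ccl7 was below 1 CPM in each library. In plantaris LRT CTRL it was lowest at 0.21 CPM, with a median of 0.576 and a highest value of 0.762 CPM. Plantaris HRT CTRL ran from 0.356 to 0.963 CPM with a median of 0.577. The medians of the lines in plantaris therefore nearly coincided. Soleus LRT CTRL held the lowest value of all libraries, 0.112 CPM from 3 counts in replicate 5, with a median of 0.441 and a highest value of 0.665 CPM. Soleus HRT CTRL ran from 0.254 to 0.774 CPM, with a median of 0.47.

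In immobilized muscle the medians were 1.95 to 2.34 times those of the matching controls, and the values were more widely spread in CPM. Plantaris LRT HI ran from 0.564 to 1.78 CPM with a median of 1.28, and plantaris HRT HI from 0.443 to 2.49 CPM with a median of 1.13. Replicate 4 of plantaris HRT HI held the highest value of all libraries, from 80 counts. Soleus LRT HI ran from 0.453 to 1.63 CPM with a median of 0.926, and soleus HRT HI from 0.575 to 2.12 CPM with a median of 1.1. HI and CTRL overlapped in all 4 comparisons. In plantaris LRT, HI replicates 2 and 4 lay within the CTRL range, in plantaris HRT replicate 3, in soleus LRT replicates 3 and 5, and in soleus HRT replicates 2 and 3. Of all genes, 18.5% had at least 4 of 6 HI libraries above each CTRL library in LRT plantaris, 8.14% at least 5 of 6 in HRT plantaris, 15.4% at least 4 in LRT soleus and 13.1% at least 4 in HRT soleus, which are the numbers that Ccl7 reached. Over both muscles and lines, 15 of the 24 HI libraries were above the highest of the 24 CTRL libraries. The share of all genes that reach this pooled count was not computed. Each rat gave both muscles, so the 24 libraries are not 24 separate rats, and the count is a description only.

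**Figure D1:**
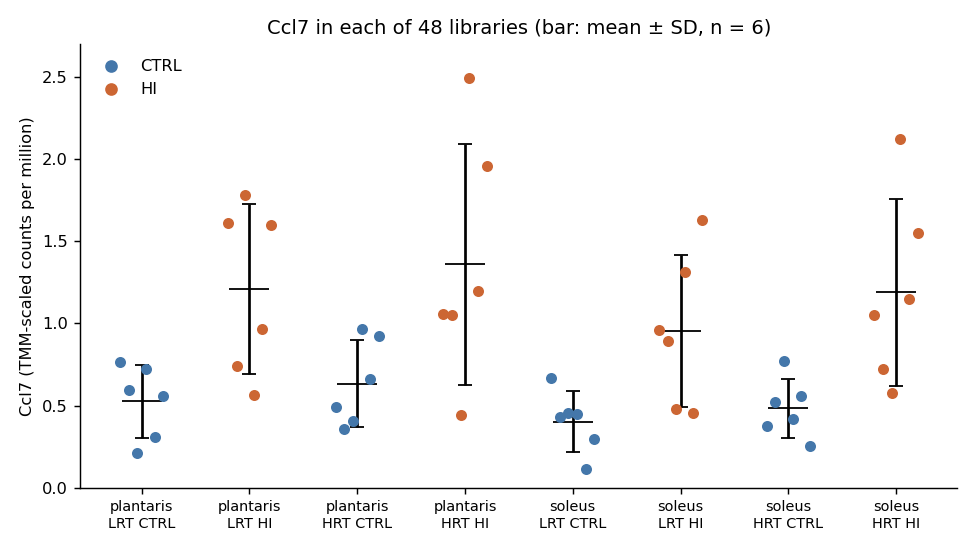
Ccl7 in TMM-scaled CPM in each of the 48 libraries. Points are libraries (blue CTRL, orange HI) in replicate order, and bars show the mean ± SD of 6 libraries. The HI means lie between 0.953 and 1.36 CPM and the CTRL means between 0.402 and 0.634 CPM, and the ranges overlap in each muscle and line.

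The differences were of similar size in the 4 comparisons. The log2 fold change (log2FC) of HI against CTRL was 1.27 ± 0.39 (SE) in LRT plantaris, where mean CPM was 1.21 ± 0.517 in HI and 0.526 ± 0.222 in CTRL (SD, n = 6). It was 1.14 ± 0.38 in HRT plantaris, from means of 1.36 ± 0.732 and 0.634 ± 0.263 CPM. In LRT soleus it was 1.17 ± 0.40, from 0.953 ± 0.462 and 0.402 ± 0.184 CPM. In HRT soleus it was 1.21 ± 0.39, from 1.19 ± 0.569 and 0.483 ± 0.179 CPM. As folds these are 2.41, 2.2, 2.25 and 2.31, and the 4 log2FC lie within 0.13 of each other, which is less than the SE of any of them. That range was 0.12 to 0.27 under 8 other settings of the fit, and 0.07 to 0.41 when 1 library was left out of its own comparison, with 0.41 reached without plantaris HRT HI replicate 4. The 95% intervals were wide, from 0.48 to 2.05 in LRT plantaris, 0.38 to 1.9 in HRT plantaris, 0.37 to 1.98 in LRT soleus and 0.41 to 2.0 in HRT soleus. A gene chosen for being higher in all 4 comparisons is favoured to differ little between them. The closeness of the 4 log2FC therefore does not show an equal response.

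Of the 16960 genes tested, 1.75% had a larger log2FC than Ccl7 in LRT plantaris, 1.37% in HRT plantaris, 1.54% in LRT soleus and 1.51% in HRT soleus. With the thresholds of a log2FC over 1 and an adjusted p under 0.05, 2.75% of genes were called higher in LRT plantaris, 0.908% in HRT plantaris, 1.42% in LRT soleus and 1.46% in HRT soleus. Called lower were 2.44%, 0.991%, 0.991% and 1.47%, in the same order. With 1 library left out, the shares called higher ran from 1.8% (without plantaris LRT HI replicate 1) to 3.3%, from 0.491% (without plantaris HRT HI replicate 4) to 1.18%, from 0.854% (without soleus LRT HI replicate 3) to 2.03%, and from 1.05% to 1.75%. The shares called lower ran from 1.74% to 3.58%, from 0.614% (without plantaris HRT HI replicate 4) to 1.58% (without HI replicate 6), from 0.602% (without soleus LRT HI replicate 3) to 1.48% (without HI replicate 6), and from 0.936% (without soleus HRT HI replicate 1) to 2.09%. Genes called higher in all 4 comparisons numbered 21 (0.124%). Ccl7 was among them in the fit of all libraries, which describes the gene as it was chosen and is not a test. It fell outside these thresholds in 19 of 48 fits with 1 library left out, 7 in HRT plantaris, 7 in LRT soleus and 5 in HRT soleus. It also fell outside them in 8 of 32 fits under other settings, limma-voom in each comparison but LRT plantaris among them.

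Leaving out single libraries moved the log2FC of Ccl7 between 0.86 and 1.4, and it stayed above 0 in all 48 such fits. The lowest value, 0.86 in HRT plantaris, came without HI replicate 4.

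The spread within groups, which is between separate rats, was larger than counting alone gives. The variance of the counts was 2.34 to 3.62 times their mean in the CTRL groups and 7.82 to 13.1 times in the HI groups, where counting error alone would give 1. That ratio also depends on the mean count, so it does not compare the spread of HI with that of CTRL. In LRT the SD of log2 CPM was 0.64 and 0.65 in plantaris and 0.70 and 0.69 in soleus, CTRL before HI. In HRT it was 0.55 and 0.81 in plantaris and 0.48 and 0.65 in soleus. As a coefficient of variation of the CPM, the CTRL groups had 37.1% to 45.9% and the HI groups 42.7% to 53.6%. Counting alone would give 23.7% to 28.7% and 15.3% to 18.2%, respectively. The summed counts and their exact 95% Poisson intervals, which cover counting error only, were 87 (69.7 to 107) in plantaris LRT CTRL and 236 (207 to 268) in plantaris LRT HI. They were 73 (57.2 to 91.8) in soleus LRT CTRL and 181 (156 to 209) in soleus LRT HI. In the HRT groups they were 107 (87.7 to 129) and 256 (226 to 289) in plantaris, and 92 (74.2 to 113) and 239 (209.7 to 271) in soleus, CTRL before HI.

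The lines were compared to ask whether Ccl7 differed between low and high responders before or during disuse. In the fit of all libraries Ccl7 was slightly lower in LRT than in HRT in each of the 4 settings. None of the differences passed edgeR's quasi-likelihood test. In CTRL muscle the log2 difference of LRT against HRT was -0.29 ± 0.40 in plantaris (SE, adjusted p = 0.87) and -0.29 ± 0.42 in soleus (adjusted p = 0.79). In HI muscle it was -0.16 ± 0.35 in plantaris (adjusted p = 0.85) and -0.32 ± 0.36 in soleus (adjusted p = 0.62). The value in plantaris HI turned to 0.15 without HRT HI replicate 4. The medians there also ran the other way, with 1.28 CPM in LRT and 1.13 CPM in HRT. The 95% intervals run from -1.1 to 0.53, -1.13 to 0.55, -0.87 to 0.56 and -1.05 to 0.4, so a ratio of LRT to HRT as low as 0.457 lies within them. Of all genes tested, 0.525%, 1.45%, 2.42% and 12.2% passed an adjusted p under 0.05 in these comparisons, in the same order. Single libraries moved these shares, to 0.187% without plantaris LRT CTRL replicate 3, to 0.813% without soleus LRT CTRL replicate 1, to 0.538% without plantaris LRT HI replicate 1 or 9.28% without plantaris HRT HI replicate 4, and to 6.99% without soleus HRT HI replicate 4.

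The muscles were compared in the same way. Plantaris, a mostly fast muscle, was higher than soleus, a mostly slow one, in each setting, by a log2 difference of 0.44 ± 0.43 in LRT CTRL (adjusted p = 0.47), 0.44 ± 0.40 in HRT CTRL (adjusted p = 0.42), 0.54 ± 0.41 in LRT HI (adjusted p = 0.35) and 0.37 ± 0.40 in HRT HI (adjusted p = 0.5). None passed the test, whereas 32.6%, 38.8%, 29.8% and 34.2% of all genes did. The highest bound of the 95% intervals was 1.37, in LRT HI. Both muscles came from the same rats, and the fit treats their libraries as independent. With line, treatment and replicate number as a block, the shares of all genes were 37.5%, 43.7%, 32.3% and 37%, and Ccl7 passed in none.

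The response of Ccl7 to immobilization was compared between lines and between muscles as a difference of differences. These 4 contrasts are made from the same HI and CTRL values by which the gene was chosen. A gene chosen for being higher in all 4 comparisons is favoured to differ little between them, so they are not independent of the choice. DELTA, the log2FC of LRT minus that of HRT, was 0.13 ± 0.53 in plantaris (95% interval -0.95 to 1.2, adjusted p = 0.98) and -0.03 ± 0.58 in soleus (-1.2 to 1.13, adjusted p = 0.99). The log2FC of plantaris minus that of soleus was 0.09 ± 0.58 in LRT (-1.07 to 1.26, adjusted p = 0.96) and -0.07 ± 0.54 in HRT (-1.16 to 1.03, adjusted p = 0.98). Of all genes, 0% passed in DELTA in plantaris (edgeR, with 1060 at an unadjusted p under 0.05, and 0 in DESeq2 and 1 in limma-voom after adjustment), 0.0295% in DELTA in soleus, 2.18% in the muscle difference in LRT and 0.0943% in that in HRT. With the block by line, treatment and number the last 2 shares were 7.54% (1279 genes) and 0.761% (129 genes), and Ccl7 did not pass. With 1 library left out and no block, the number of genes in the muscle difference in LRT ran from 38 (without plantaris LRT HI replicate 1) to 897 (without HI replicate 6) around 370. In HRT it ran from 1 (without plantaris HRT CTRL replicate 3) to 27 (without soleus HRT HI replicate 3) around 16, and in DELTA in soleus from 3 to 81 (without soleus HRT HI replicate 6) around 5. The point estimates are close to 0, but the intervals still hold ratios of the responses from 0.437 to 2.39. Across the 12 tests of Ccl7 the lowest unadjusted p was 0.2.

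**Figure D2:**
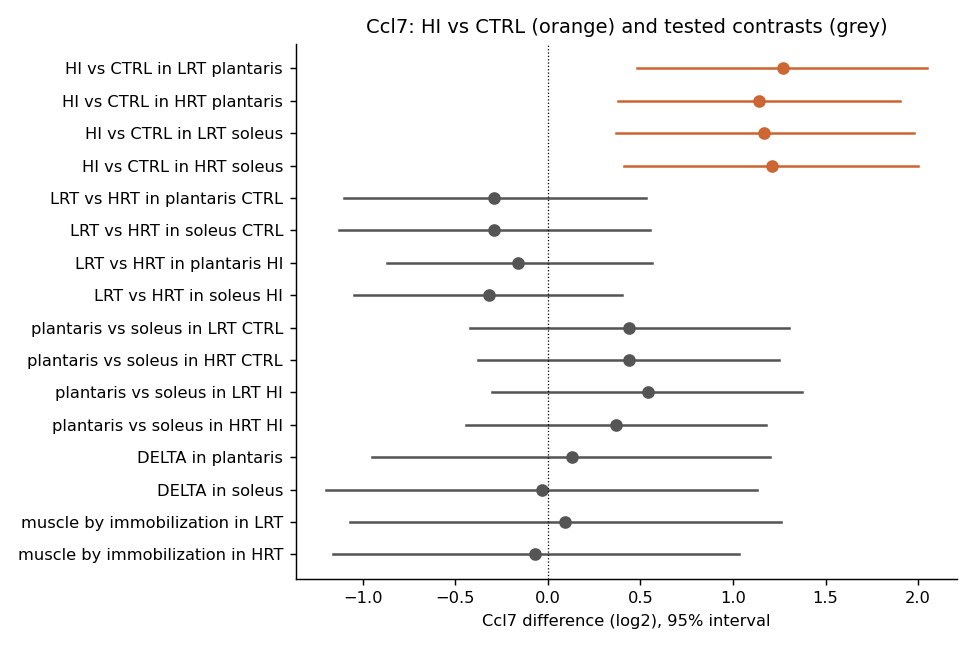
Differences in Ccl7 on the log2 scale with 95% intervals from the fit of all 48 libraries. The 4 HI against CTRL differences (orange, chosen for their direction and not tested) lie between 1.14 and 1.27, and the intervals of the 12 tested contrasts (grey) all include 0. Of the 12, the 4 differences of differences are made from the values by which the gene was chosen, which favours small values.

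Ordered by mean CPM, the groups ran from soleus LRT CTRL (0.402) through soleus HRT CTRL (0.483), plantaris LRT CTRL (0.526), plantaris HRT CTRL (0.634), soleus LRT HI (0.953), soleus HRT HI (1.19) and plantaris LRT HI (1.21) to plantaris HRT HI (1.36). All neighbours in this order were closer than the larger of their SDs. The widest step, 0.319 CPM between plantaris HRT CTRL and soleus LRT HI, exceeded the SD of the former (0.263) and not that of the latter (0.462).

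Of the 20 CC chemokine ligands listed, Ccl7 and Ccl2 could be matched to an identifier, because identifiers were paired with symbols only in the tables of genes that the study had called in these samples. Counts over the lists below carry that choice with them and are not independent evidence of direction or of enrichment. A member could be matched only if the study had already called it somewhere in these samples. The shares of all genes given beside these counts are therefore not a like background. Ccl2 (ENSRNOG00000007159), the classical monocyte chemoattractant, rose in HRT soleus, by a log2FC of 1.52 ± 0.39 (adjusted p = 0.0066), with a median of 3.38 CPM in HI and 1.08 CPM in CTRL. In the other comparisons it did not pass, with a log2FC of 0.95 ± 0.38 in HRT plantaris (adjusted p = 0.091), 0.61 ± 0.38 in LRT plantaris (adjusted p = 0.24) and 0.52 ± 0.39 in LRT soleus (adjusted p = 0.4). Its DELTA in soleus was -1.0 ± 0.54 and did not pass either (adjusted p = 0.56), so a difference between the lines was not shown. Cxcl12, a chemokine made by stromal cells that retains leukocytes and progenitors, went the other way. It fell by 1.33 on the log2 scale in HRT soleus (adjusted p = 8.2e-09), and was -0.73, -0.71 and -0.95 in LRT plantaris, HRT plantaris and LRT soleus with adjusted p of 9e-05, 0.00093 and 3e-05. Its muscle difference in HRT was 0.62 ± 0.20 without a block (adjusted p = 0.17) and passed with the block by line, treatment and number (0.65 ± 0.11, adjusted p = 0.0062). No identifier could be matched for any of the 23 chemokine receptors listed, Ccr1, Ccr2 and Ccr3 among them, and they were not analysed here.

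Over the 48 libraries, Ccl2 was the gene most like Ccl7 of the 13629 with a mean of at least 1 CPM. The Pearson correlation of their log2 CPM was 0.78, where the median over all genes was 0.02 and the 95th percentile 0.42. This measure includes the difference between groups. The deviations of each library from its group mean do not, and on these Ccl2 was again first, with r = 0.70 against a 95th percentile of 0.31. By muscle, r of these deviations was 0.83 over the 24 plantaris libraries (Spearman's rho 0.79) and 0.57 over the 24 soleus libraries (rho 0.61). Without the 2 libraries farthest from the median of Ccl2 it was 0.75 and 0.56. Points share library, depth and scaling, and these correlations describe the libraries with no test.

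The highest library was the same for Ccl7 and Ccl2 in 5 of 8 groups, and the lowest in 5 of 8. These counts come from the same values as the correlations above, and no such count was made for other genes. Both muscles came from the same rats, so the 8 groups are not separate sets of rats. In HRT HI, replicate 4 was highest for both chemokines in both muscles, at 2.49 and 2.12 CPM of Ccl7 and 5.84 and 4.94 CPM of Ccl2 in plantaris and soleus. Replicate 3 was lowest for both in both muscles, at 0.443 and 0.575 CPM of Ccl7 and 0.887 and 0.913 CPM of Ccl2. In plantaris LRT CTRL, replicate 1 was highest and replicate 3 lowest for both, at 0.762 and 0.21 CPM of Ccl7. In soleus HRT CTRL, replicate 3 was highest for both, whereas the lowest was replicate 6 for Ccl7 and replicate 1 for Ccl2. In plantaris LRT HI neither end was shared, the highest being replicate 3 for Ccl7 and replicate 1 for Ccl2.

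**Figure D3:**
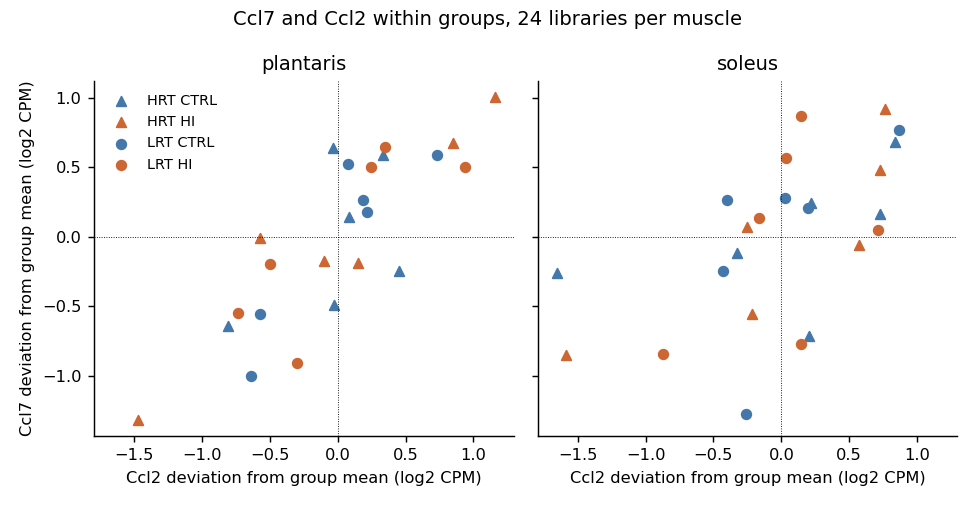
Deviation of Ccl7 from its group mean (vertical axis, log2 CPM) against that of Ccl2 (horizontal axis, log2 CPM) in the 24 libraries of each muscle, with circles for LRT, triangles for HRT, blue for CTRL and orange for HI. The points follow a rising band in plantaris (r = 0.83) and a looser one in soleus (r = 0.57).

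The rats gave both muscles, but the labels do not state that a replicate number marks the same rat in plantaris and soleus. The deviations of Ccl7 in same-numbered libraries of the same line and treatment were related weakly, with r = 0.27 over 24 pairs (permutation p = 0.2) and rho = 0.25 (permutation p = 0.24). Without the 2 pairs farthest from the median in plantaris r was 0.21. In the 12 HI pairs r was 0.43 (permutation p = 0.16), and it fell to 0.03 without the 2 farthest pairs, so it rested on them. In the 12 CTRL pairs r was 0.06 (permutation p = 0.86), and it rose to 0.26 without the 2 farthest pairs. The adjusted p over the 10 relations of this kind computed for Ccl7 and Ccl2 was 0.26 for the first and 0.86 for the last.

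**Figure D4:**
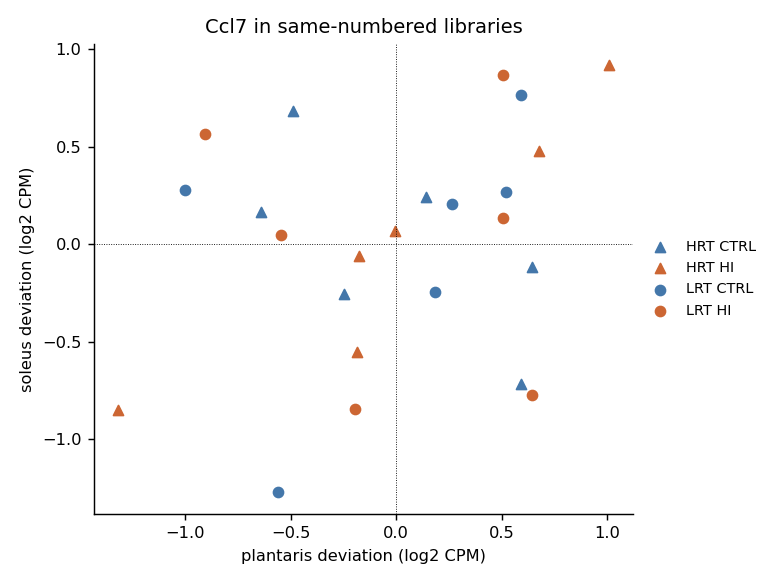
Deviation of Ccl7 from its group mean (log2 CPM) in plantaris (horizontal axis) and soleus (vertical axis) for 24 pairs of libraries with the same line, treatment and replicate number. The pairs scatter over all quadrants, with r = 0.27, and 14 of 24 deviate to the same side in both muscles.

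After Ccl2, the named genes most like Ccl7 over the 48 libraries were Nfkbiz (r = 0.73), which encodes a nuclear regulator of NF-kB, Fosb (0.72), a subunit of AP-1, Mt1 (0.69), a metal-binding metallothionein, Il4i1 (0.66), an amino acid oxidase of immune cells, and Slc25a45 (0.64), a carrier of the mitochondrial family. The transcripts AABR07065124.2 (0.61) and AABR07068327.1 (0.59) followed, at ranks 13 and 26 among all genes. The genes ENSRNOG00000013634 (0.68) and ENSRNOG00000007089 (0.65), which have no symbol here, also ranked high. On the deviations from the group means the named genes after Ccl2 were Nfkbiz (0.56), Tnfaip6 (0.55), which encodes a hyaluronan-binding protein induced in inflammation, RT1-Ba (0.53), a class II histocompatibility chain, Klf4 (0.53), a transcription factor, Lilrb4 (0.52), an inhibitory receptor of myeloid cells, Slc25a45 (0.51) and Ptgs2 (0.50), the inducible cyclooxygenase. These are the highest among the 1017 of the 13629 genes that have a symbol here, and not the next in order, since Nfkbiz ranked 19 among all genes, Tnfaip6 23, RT1-Ba 34, Klf4 36, Lilrb4 44, Slc25a45 57 and Ptgs2 61. The genes ranked 2 and 3, ENSRNOG00000004192 (0.68) and ENSRNOG00000014294 (0.64), and the others between have no symbol here. Only Ccl2, Nfkbiz and Slc25a45 of the 8 named genes stood on both lists. Several did not share the difference between HI and CTRL. Klf4 fell by 1.08 on the log2 scale in LRT soleus (adjusted p = 0.0014), and Tnfaip6 had a log2FC of -0.95 in HRT soleus (adjusted p = 0.042).

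The genes of the NF-kB pathway with an identifier, 7 of the 26 listed, are given by comparison. All 7 could be matched only because the study had called them in these samples, so a high count of calls is favoured by the matching. In LRT plantaris 6 of the 7 were called higher and 1 lower, where 2.75% and 2.44% of all genes were, with a median log2FC of 1.45 against 0.01 over all genes tested. Nfkb2 and Relb, the transcription factors of the non-canonical branch, rose by a log2FC of 1.73 and 1.65 (adjusted p = 5.2e-06 and 4.5e-05), and Map3k14, the kinase of that branch, by 1.70 (adjusted p = 0.00018). In HRT plantaris 1 was called higher (0.908% of all genes), Nfkbiz, with a log2FC of 1.01 (adjusted p = 0.0068), and the median was 0.76. That call was lost without HI replicate 4 or 6 or CTRL replicate 1 or 2, when the log2FC fell below the threshold of 1. In soleus the medians were 0.17 in LRT, where 0 of the 7 were called in either direction, and -0.46 in HRT, where 0 were called higher and 1 lower (1.46% and 1.47% of all genes). The gene called lower in LRT plantaris and HRT soleus was Traf5, an adaptor of receptors of the TNF family. Its log2FC was -1.17, -0.83, -0.71 and -1.13 in LRT plantaris, HRT plantaris, LRT soleus and HRT soleus (adjusted p = 2.3e-07, 0.00019, 0.00038 and 2.4e-07). The muscle difference in LRT was itself past an adjusted p of 0.05 for 3 of the 7, where 2.18% of all genes passed. These were Nfkb2 (1.86 ± 0.35, adjusted p = 0.0049), Relb (1.48 ± 0.40, adjusted p = 0.04) and Map3k14 (1.65 ± 0.47, adjusted p = 0.049). With 1 library left out, between 1 and 4 of the 7 passed. With the block by line, treatment and number the muscle difference in LRT passed for 4 (7.54% of all genes). These were the same 3 and Ripk2 (0.76 ± 0.21, adjusted p = 0.033), a kinase that signals to NF-kB. In HRT the muscle difference passed for none of the 7 without the block (0.0943% of all genes), with the lowest adjusted p of 0.14 for Relb. With the block it passed for Relb (1.29 ± 0.31, adjusted p = 0.045), where 0.761% of all genes passed. DELTA in plantaris and in soleus passed for none either, so a difference between the lines was not shown (Nfkb2 in plantaris 1.15, adjusted p = 0.75). Within groups Nfkbiz had the highest correlation with Ccl7 on this list, and Nfkb2 (0.13) and Relb (-0.11) were near 0.

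The AP-1 and immediate-early factors, 16 of 19 with an identifier, are given in the same way. In LRT plantaris 9 were called higher (2.75% of all genes), with a list median of 1.18, and in HRT plantaris 4 (0.908% of all genes), with a median of 0.64. The latter count was 2 without HI replicate 4 or 6 or CTRL replicate 4 or 6. In soleus 6 were called lower and 0 higher in LRT, and 4 lower and 1 higher in HRT (of all genes, 0.991% lower in LRT, and 1.47% lower and 1.46% higher in HRT), with medians of -0.87 and -0.42. The counts called lower ran from 4 (without LRT HI replicate 2) to 7 in LRT soleus and from 2 (without HRT HI replicate 1 or 3 or CTRL replicate 1 or 6) to 5 in HRT soleus with 1 library left out. Fosb had the largest log2FC, 4.93 in LRT plantaris (adjusted p = 4.9e-06), 3.92 in HRT plantaris (adjusted p = 0.0004) and 3.31 in HRT soleus (adjusted p = 0.00092), with 1.64 in LRT soleus (adjusted p = 0.07). Junb, another AP-1 subunit, rose by 2.03 in LRT plantaris (adjusted p = 4.5e-05) and was 0.32 in LRT soleus (adjusted p = 0.58). Atf3, a stress-induced repressor, and the nuclear receptor Nr4a3 fell in LRT soleus, by 2.63 and 3.13 on the log2 scale (adjusted p = 0.00061 and 0.0024), and in HRT soleus by 2.03 and 2.75 (adjusted p = 0.0055 and 0.0042). The muscle difference in LRT passed for 7 of the 16 (2.18% of all genes), Egr1 among them (2.45 ± 0.54, adjusted p = 0.018). With the block it passed for 10 (7.54% of all genes). With 1 library left out and no block it passed for up to 10, and for 0 without plantaris LRT HI replicate 1 (0.222% of all genes). In HRT it passed for none of the 16 in edgeR without the block (Egr1 1.62 ± 0.55, adjusted p = 0.21) or with it (Egr1 1.52 ± 0.40, adjusted p = 0.069), and DELTA passed for none in either muscle. Correlations with Ccl7 within groups ran from -0.05 to 0.53 on this list, with Fosb at 0.50, Junb at 0.46 and Fos at 0.44.

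**Figure D5:**
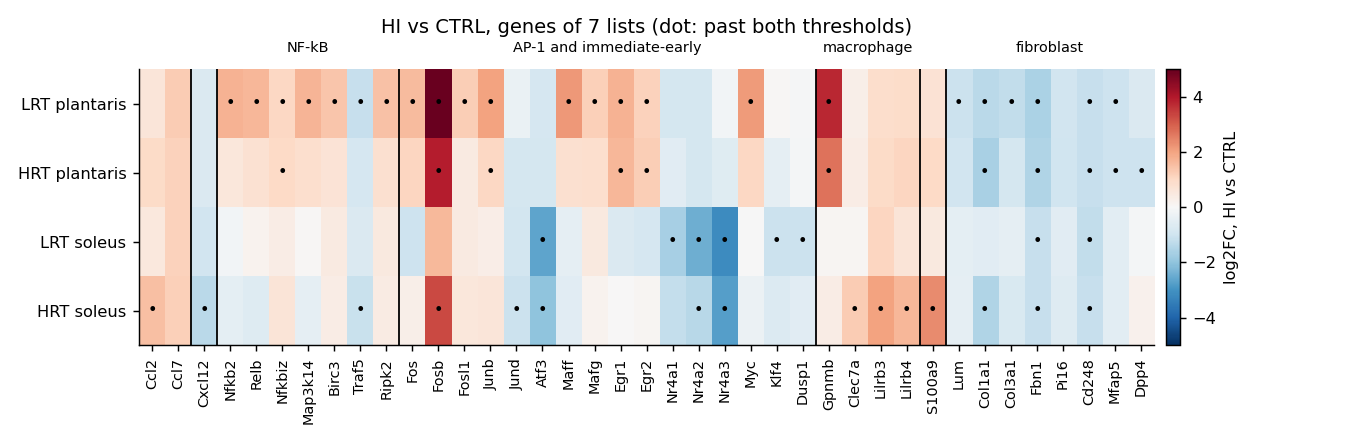
Log2FC of HI against CTRL (colour, red higher in HI) in the 4 comparisons for genes of 7 lists, with a dot where a gene other than Ccl7 passed both thresholds. The NF-kB list has medians of 1.45 in LRT plantaris and -0.46 in HRT soleus, and Ccl7, chosen for being higher in all 4, lies between 1.14 and 1.27.

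Zc3h12a, an RNase that degrades messages of inflammatory genes, rose in LRT plantaris (log2FC 1.59, adjusted p = 6e-05) and was between -0.18 and 0.34 in the other comparisons. Its muscle difference in LRT passed (1.75 ± 0.40, adjusted p = 0.021), but not without plantaris LRT HI replicate 1 or replicate 3, whereas DELTA in plantaris did not (1.25 ± 0.39, adjusted p = 0.75), so a difference between the lines was not shown. Dpp4, a protease that trims chemokines, fell by 1.02 on the log2 scale in HRT plantaris (adjusted p = 0.0067) and by 0.72 in LRT plantaris (adjusted p = 0.022). The call in HRT plantaris was lost, by the same threshold, without HI replicate 1 or 4 or CTRL replicate 5 or 6. Of the inflammatory cytokines and receptors 7 of the 34 listed had an identifier. In LRT soleus 2 were called higher and 1 lower, and in HRT soleus 3 and 2 (of all genes, 1.42% and 0.991%, and 1.46% and 1.47%). With 1 library left out the number called lower ran from 0 to 2 in each, and that called higher from 1 to 2 and from 2 to 3. The list medians were 0.05, -0.25, -0.02 and -0.86 in LRT plantaris, HRT plantaris, LRT soleus and HRT soleus, against 0.01 to 0.02 over all genes. Among those that rose, Il6r was above 0 in all comparisons, with a log2FC of 0.81, 0.83, 1.03 and 1.34 in LRT plantaris, HRT plantaris, LRT soleus and HRT soleus (adjusted p = 0.0055, 0.015, 0.0022 and 0.00015). Il15, a cytokine of muscle, rose in soleus, by 1.13 in LRT and 1.29 in HRT soleus (adjusted p = 0.0079 and 0.0031), and was 0.09 and 0.64 in plantaris (adjusted p = 0.84 and 0.12). Its muscle difference did not pass with or without the block. Il18bp, which binds and blocks interleukin 18, rose by 1.13 in HRT soleus (adjusted p = 0.00055). Among those that fell, Tnfrsf12a, the receptor of the cytokine TWEAK, was lower by a log2FC of -1.92 in HRT soleus (adjusted p = 0.037). Sigirr, an inhibitory receptor of the interleukin 1 family, had -1.05 in HRT soleus (adjusted p = 0.0043), and Osm, a cytokine of the interleukin 6 family, -1.41 in LRT soleus (adjusted p = 0.044). Without the block no muscle difference on this list passed in edgeR. With it Tnfrsf12a passed in LRT (2.51 ± 0.69, adjusted p = 0.029, against 0.25 without) and Il18bp in HRT (-1.38 ± 0.25, adjusted p = 0.015, against 0.073 without). DELTA did not pass for any of the 7 in either muscle.

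Some markers of cells that can make or answer Ccl7 also moved with immobilization, and their part in its difference was not tested. Of 24 monocyte and macrophage markers 4 had an identifier, and none of these 4 was at 0 in any group. Their summed level ran from 5.94 to 9.36 CPM in plantaris LRT CTRL and 15.3 to 165 CPM in plantaris LRT HI, and from 6.02 to 9.89 and 8.63 to 142 CPM in plantaris HRT. In soleus it reached up to 34.4 CPM and from 12.9 to 30.7 CPM in LRT, and from 12.6 to 26.4 and 12.8 to 40.4 CPM in HRT, CTRL before HI. The plantaris sums followed Gpnmb, a glycoprotein of macrophages that other cells also make, with a log2FC of 3.77 in LRT plantaris (adjusted p = 1.1e-05) and 2.73 in HRT plantaris (adjusted p = 0.0023), and with 0.11 and 0.39 in LRT and HRT soleus. Its muscle difference passed in LRT (3.67 ± 0.76, adjusted p = 0.011, and 0.014 with the block) and not in HRT (2.34 ± 0.79, adjusted p = 0.2, and 1.44 ± 0.70 with the block, adjusted p = 0.32). In HRT soleus the other 3 rose, where 1.46% of all genes were called higher. Lilrb3 rose by 2.03 (adjusted p = 0.0022), Lilrb4 by 1.65 (adjusted p = 0.0039) and Clec7a by 1.26 (adjusted p = 0.016). Without HI replicate 1, 2 of them were called (1.05% of all genes). In LRT soleus none of the 4 passed edgeR's test, with log2FC from 0.10 to 1.08 and adjusted p from 0.12 to 0.92. DELTA in soleus did not pass for any of the 4 in edgeR (-1.16 to -0.28, adjusted p from 0.46 to 0.94), so a difference between the lines was not shown. The neutrophil marker S100a9, the single one matched of 10, rose in HRT soleus with a log2FC of 2.35 (adjusted p = 0.021), and was at 0.49 in LRT soleus (adjusted p = 0.7). Its DELTA in soleus was -1.86 ± 0.97 and did not pass (adjusted p = 0.54), and its call in HRT soleus was lost without HI replicate 4 or CTRL replicate 6. Correlations of these markers with Ccl7 within groups were 0.26 to 0.52.

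Fibroblast and fibro-adipogenic progenitor markers, 8 of 13 with an identifier, had negative medians. In LRT plantaris 6 were called lower, in HRT plantaris 5, in LRT soleus 2 and in HRT soleus 3 (2.44%, 0.991%, 0.991% and 1.47% of all genes), with medians of -1.12, -1.02, -0.54 and -0.70. Without plantaris LRT HI replicate 3 the first count was 3, and without plantaris HRT HI replicate 1 or replicate 4 the second was 2. The count in LRT soleus was 1 without HI replicate 3 or CTRL replicate 3, and that in HRT soleus fell to 2 at the lowest. Dpp4 was at 0.22 in HRT soleus (adjusted p = 0.58). Their summed level ran from 636 to 1334 CPM in plantaris LRT CTRL and 225 to 789 CPM in plantaris LRT HI, from 679.7 to 1306 and 229 to 689 CPM in plantaris HRT, from 533 to 1121 and 196 to 1027 CPM in soleus LRT, and from 540.4 to 2719 and 461 to 967 CPM in soleus HRT. Cd248, a stromal cell marker, and Fbn1, a microfibril protein, were past both thresholds in all comparisons, Cd248 with a log2FC of -1.15, -1.15, -1.23 and -1.17. Correlations of the list with Ccl7 within groups were 0.04 to 0.24. The red blood cell markers rose in HRT soleus, 6 of 6 (1.46% of all genes), with a median log2FC of 2.94, and 3 of 6 without HI replicate 5. The medians were -0.55 in LRT plantaris, 1.48 in HRT plantaris and 0.51 in LRT soleus. DELTA in soleus passed for none of the 6 in edgeR, with adjusted p from 0.23 to 0.45. The summed level in soleus HRT HI ran from 224 to 10598 CPM with a median of 1156, and from 163 to 611 CPM in its controls. Their correlations with Ccl7 ran from -0.15 to 0.10. RIN was related weakly to Ccl7 within groups, with r = -0.18 in plantaris and -0.12 in soleus over 24 libraries each.

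The other lists carried few matched genes. Denervation markers, 4 of 8 matched, were called higher 4 times in LRT plantaris, 2 in HRT plantaris, 1 in LRT soleus and 1 in HRT soleus (2.75%, 0.908%, 1.42% and 1.46% of all genes), with medians of 2.88, 1.49, 0.68 and 0.35. Gadd45a, a growth arrest gene induced in denervated muscle, was the member called in each comparison, and its correlation with Ccl7 within groups was 0.05. Without plantaris HRT HI replicate 4, 0 of the 4 were called in HRT plantaris. Of the satellite cell and regeneration markers, 3 of 7 matched, 2 were called higher in LRT plantaris, 1 in LRT soleus and 1 in HRT soleus (2.75%, 1.42% and 1.46% of all genes). Myog, a myogenic transcription factor also on the denervation list, rose by 2.62 in LRT plantaris (adjusted p = 4.4e-05) and had 1.26 in HRT plantaris (adjusted p = 0.057, DELTA 1.36 with adjusted p = 0.78), and the list medians were 1.14, 1.09, 0.62 and 0.40. Cdkn1a, an inhibitor of the cell cycle, rose in LRT plantaris (1.14, adjusted p = 0.033) and LRT soleus (1.33, adjusted p = 0.026), calls lost without single libraries in 7 of 12 and 3 of 12 fits. Myod1, a myogenic transcription factor, rose in HRT soleus (1.26, adjusted p = 0.0072), where Myog had -0.14. DELTA did not pass for any of the 3. Fast muscle markers, 4 of 10 matched, had medians of -1.13, -0.49, -0.16 and 0.64. In LRT plantaris 2 of them were called lower (2.44% of all genes), and 1 without HI replicate 1 or replicate 3. These 2 were Mylpf, a light chain of fast myosin (-1.22, adjusted p = 0.017), and Casq1 (-1.49, adjusted p = 7e-06). In LRT soleus Pvalb was called higher (3.23, adjusted p = 0.0002), apart from the other 3 (-0.55 to 0.19). Its muscle difference in LRT was -4.27 ± 0.74 (adjusted p = 0.0029). With the block by line, treatment and number, 2 of the 4 passed that contrast (7.54% of all genes). These were Pvalb and Casq1 (-1.03 ± 0.21, adjusted p = 0.0067, against 0.081 without the block). Slow muscle markers, 2 of 9 matched, had medians of -0.81, -0.05, -0.35 and 0.33, with Casq2 called lower in LRT plantaris (-1.42, adjusted p = 0.0035) and Pln called higher in HRT soleus (1.14, adjusted p = 0.00076). The lymphocyte and endothelial lists had no matched gene and were not analysed here.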

How the data were processed

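RNA sequencing was performed on 48 libraries, 6 for each of 8 groups taken from the labels. According to the methods of the study, the authors mapped reads to the transcripts of Ensembl release 91 (Rnor_6.0) and normalized them for length with Salmon 0.9.1, and summed them by gene in tximport. Estimated counts were deposited, not normalized between libraries, and were rounded here. The kit is named differently in the labels and the methods, so strandedness was not settled. Genes were filtered with filterByExpr, normalized by TMM and fitted in edgeR 4.0.16 (R 4.3.3) with group and RIN over all libraries (quasi-likelihood test, Benjamini-Hochberg adjustment over 16960 genes). SE was taken from the log2FC and F, and log2 CPM used a prior count of 2. Permutation tests were 2-sided with 100000 resamples (numpy 2.4.6, scipy 1.17.1). Symbols came from the gene tables of the study. The named genes were Ccl7, the matched members of the lists, and the 8 genes with a symbol, plus 2 without, most like Ccl7 on each of the 2 measures among genes with a mean of at least 1 CPM. The gene and the lists were chosen with earlier results of these data known. Limma 3.58.1 and DESeq2 1.42.0 served as alternatives.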

Additional observations from a re-analysis of the deposited data

Results flagged for a closer look

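Ccl2 in replicate 1 of soleus LRT CTRL was at 2.19 CPM, and the next highest of the 6 libraries was at 1.36 CPM. The gap is 0.63 of the range of the group, just above Dixon's 95% critical value. Of 16 groups examined for Ccl7 and Ccl2 this was the single one, and chance gives about 1 in 20. No group of Ccl7 had such a library, though replicate 1 also held the highest Ccl7 value of soleus LRT CTRL (0.665 CPM).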

How the results depend on the processing

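The log2FC of Ccl7 in HI against CTRL stayed between 1.06 and 1.52 under 32 fits with other scalings, filters, tools or terms. The highest value was from scaling to library totals in LRT plantaris, HRT plantaris and LRT soleus (1.52, 1.32 and 1.32), and from no RIN term in HRT soleus (1.3, against 1.28 with library totals). Library totals moved the median of all genes to 0.254 in LRT plantaris, 0.174 in HRT plantaris, 0.154 in LRT soleus and 0.073 in HRT soleus. Leaving out 1 library gave 1.1 to 1.4 in LRT plantaris, 0.86 to 1.3 in HRT plantaris, 0.9 to 1.38 in LRT soleus and 1.03 to 1.4 in HRT soleus.

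None of the 288 refits of the 12 tested contrasts passed. Their adjusted p ran from 0.15 to 1.0, but no adjusted p was obtained from DESeq2 for the muscle difference in HRT. None had an unadjusted p under 0.05 in edgeR, limma-voom or DESeq2. Contrasts close to 0 changed sign. DELTA in soleus was 0.03 with library totals, 0.00033 with limma-voom and 0.05 with the replicate block of number 1 to 6. The muscle difference was -0.02 in LRT with no RIN term, and in HRT 0.03 with library totals and 0.06 with that same block of number 1 to 6. Without single libraries LRT against HRT in plantaris HI ran from -0.34 to 0.15, DELTA in plantaris from -0.06 to 0.43, DELTA in soleus from -0.27 to 0.17, and the muscle difference from -0.12 to 0.39 in LRT and -0.31 to 0.1 in HRT. The causes were not tested.

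The replicate number was not taken as a pairing. Same-numbered libraries of plantaris and soleus deviated together over all genes in 22 of 24 pairs (r over 0.1), and 22 of 24 correlated best with their own number, which is a hint from the data. With line, treatment and number as the replicate block, plantaris against soleus was 0.43, 0.39, 0.48 and 0.28 in LRT CTRL, HRT CTRL, LRT HI and HRT HI, and the muscle difference was 0.05 in LRT and -0.12 in HRT. This block moved the number of all genes with a muscle difference from 370 to 1279 in LRT and from 16 to 129 in HRT. The number 1 to 6 alone as the block, which links different rats across HI and CTRL, gave an HI log2FC of 1.33, 1.12, 1.11 and 1.06. No tested contrast of Ccl7 passed with either block. A filter of at least 10 counts in each library removed Ccl7, whose lowest count was 3, and gave no value. At this depth a library of the CTRL groups rests on few Ccl7 counts, which limits the precision of each value.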

Other observations

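A wider look at genes called higher in all 4 comparisons showed 21, of which 17 have a symbol. Mt1 and Mt2A, both metallothioneins that bind zinc and copper, were among them with a log2FC of 2.62 and 2.31 in LRT plantaris and 2.6 and 1.77 in HRT soleus. Hdac4, a deacetylase of the muscle response to loss of nerve input, ran from 2.02 to 2.83, and Gadd45a, a stress gene of atrophying muscle, from 1.67 to 3.29. These genes were chosen after their values were seen.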
